A study of Mus musculus with 2 samples.

Results

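The genes described here are the readers and erasers of N6-methyladenosine (m6A): Ythdf1, Ythdf2, Ythdf3, Ythdc1, Ythdc2, Igf2bp1, Igf2bp2 and Igf2bp3 as readers, and Fto and Alkbh5 as erasers. They are 10 of 21951 protein-coding genes, and a site was assigned to one of them when it lay inside the GENCODE M21 interval of the gene on the gene's strand. Poly(A)+ RNA of 2 tissue samples underwent GLORI, 1 cerebellum and 1 cerebrum, both of a female F1r mouse (C57 mother and PWK father) at postnatal day 0. In GLORI, glyoxal and nitrite turn unmethylated adenosine into a base read as G, whereas m6A is still read as A. No sample without deamination treatment and no genetic or drug treatment entered the comparison, and the tissues are whole, mixed tissues, so fewer cells of a type and less RNA per cell cannot be told apart.

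The deposited lists held 79355 sites for cerebellum and 188295 for cerebrum, of which 48241 were found in both. For its allelic analysis the paper kept only GLORI sites that also lay in peaks of antibody-based m6A-seq. That filter was not applied here, so all sites below are GLORI calls alone. The lists give positions only, with no methylation level and no read count. The depth is therefore unknown. An unlisted adenosine may lack m6A or carry it at a rate not above the authors' threshold. It may also lie in a transcript that is not expressed, or have had too few reads. With 1 library per tissue there was no replicate check and no test, and shares are followed in parentheses by 95% Wilson intervals, or by their upper bound where none was listed. The intervals treat sites as independent, which neighbouring sites of a transcript are not, and cover counting error only. The labels were checked with marker genes. Of 10 cerebellum and hindbrain genes, 5 had a site in cerebellum and 3 in cerebrum, with 40 and 5 sites. Atoh1, Ptf1a, Skor2 and Pcp2 had none in either library. Of 11 cerebrum and forebrain genes, 4 had a site in cerebellum and 11 in cerebrum, with 34 and 335 sites.

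As background, m6A is written into mRNA as it is made, by a complex of METTL3 and METTL14 with its partners, mostly inside the motif DRACH (where D excludes C, R is a purine and H excludes G), and is typically dense in long internal exons and near the stop codon. Readers of the YTH family hold the methyl group in an aromatic pocket of the YTH domain. YTHDF1 to YTHDF3 act in the cytoplasm and are tied to decay and translation of methylated mRNA, YTHDC1 acts in the nucleus on splicing and export, and YTHDC2 is an RNA helicase needed in meiosis. IGF2BP1 to IGF2BP3 are KH-domain proteins of embryonic tissues that have been put forward as readers which stabilise mRNA. FTO and ALKBH5 are iron-dependent dioxygenases that remove the methyl group.

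The members carried 112 sites in cerebellum and 222 in cerebrum, 249 in either library and 85 in both, and every one of these positions was an A on the gene's strand. In cerebellum 7 of the 10 genes had a site (41.2% of all coding genes did) and 6 had a DRACH site (35.0% of all coding genes). In cerebrum all 10 had a site (57.4%) and 7 had a DRACH site (45.2%). A DRACH site found in both libraries was present in 6 members, Ythdf1, Ythdf2, Ythdf3, Ythdc1, Fto and Alkbh5 (31.5% of all coding genes). Members were picked by function, and the lists hold no expression value on which they could be matched to other genes.

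The sequences below place, for each of these 6 genes, the DRACH site closest to the stop codon among those found in both libraries. They are read from GRCm38 (the assembly of mm10, hence the C57 allele) on the gene's strand. The DRACH 5-mer is in capitals, with the listed A in its middle. The stop codon is counted from its last base.
Ythdf1, 33 nt past the stop codon, chr2:180905597-180905621, minus strand: ggttaatggtTGACTttgaaaacag
Ythdf2, 54 nt past, chr4:132186858-132186882, minus strand: tatcctaagaGGACAcgatgacctg
Ythdf3, 48 nt past, chr3:16214014-16214038, plus strand: ctaatgatgtAGACTctggaaatgc
Ythdc1, 156 nt past, chr5:86836052-86836076, plus strand: agtagaataaGAACTggaaaactca
Fto, 64 nt past the stop codon of isoform Fto-201, chr8:91666487-91666511, plus strand: ctcaaaccttGGACAagggtagtgt
Alkbh5, 3918 nt past, chr11:60558321-60558345, plus strand: tggaaccactGGACTccggcttttg
In 5 of the 6 genes this site lay within the first 200 nt of the 3′ UTR. It was picked for being the closest, so this closeness does not measure a preference for the stop codon. In Alkbh5 the site was the only one found in both libraries, and it lay toward the far end of a 3′ UTR of 4097 nt.

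**Figure D1:**
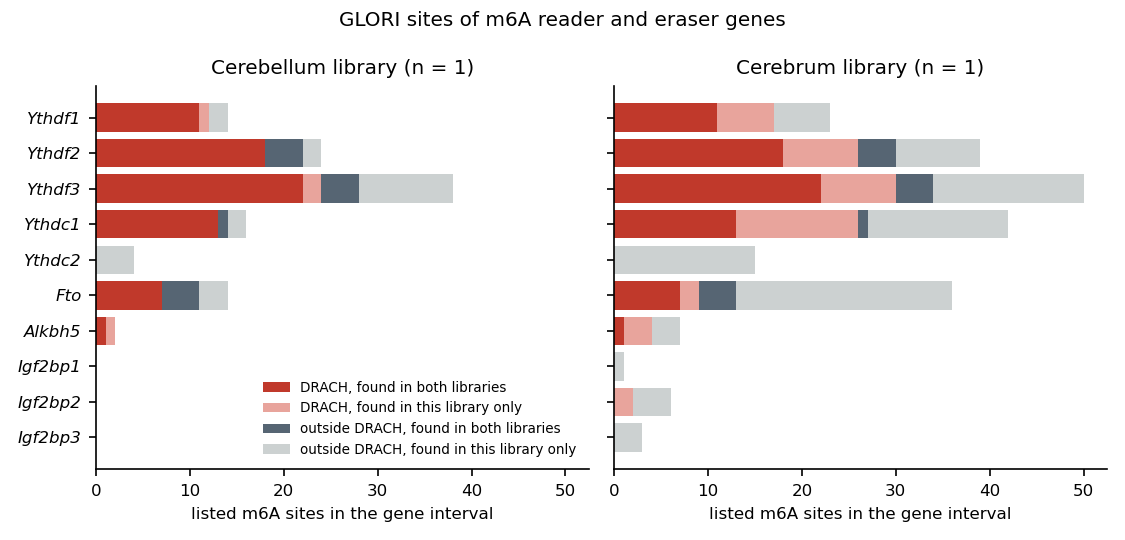
Number of listed m6A sites (x axis) in the gene interval of each reader and eraser (y axis) in the cerebellum library (left) and the cerebrum library (right), split by DRACH motif and by whether the site was found in both libraries. Ythdf1 to Ythdf3 hold 76 of the 112 cerebellum sites, and Igf2bp1 to Igf2bp3 hold none in cerebellum.

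The members differed widely from one another. The cytoplasmic readers Ythdf1 to Ythdf3 held 76 of the 112 sites listed in cerebellum (67.9%, 58.7 to 75.8). In cerebrum they held 112 of the 222 (50.5%, 43.9 to 57.0). Ythdf3 was first with 38 sites in cerebellum and 50 in cerebrum. Ythdf2 followed with 24 and 39, and Ythdf1 had 14 and 23. Ythdc1 had 16 in cerebellum and 42 in cerebrum, and Fto 14 and 36. The remaining genes had few: Ythdc2 4 and 15, Alkbh5 2 and 7, and Igf2bp2, Igf2bp3 and Igf2bp1 0 in cerebellum and 6, 3 and 1 in cerebrum. Ythdf3 was first in both libraries, and Ythdc1 and Fto stood beside Ythdf1 in cerebellum and beside Ythdf2 in cerebrum. By DRACH sites alone Fto had 7 and 9, fewer than Ythdf1 (12 and 17), Ythdf2 (18 and 26) and Ythdc1 (13 and 26).

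To compare genes of unequal length and base composition, the listed DRACH sites were set against all DRACH adenosines of the gene's longest coding transcript. On this scale the YTHDF genes had the highest shares of the members in both libraries. In Ythdf3, 24 of 97 DRACH adenosines were listed in cerebellum (24.7%, 17.2 to 34.2) and 29 in cerebrum (29.9%, 21.7 to 39.6). In Ythdf2, 18 of 81 were listed in cerebellum (22.2%, 14.5 to 32.4) and 26 in cerebrum (32.1%, 22.9 to 42.9). In Ythdf1, 12 of 64 were listed in cerebellum (18.8%, 11.1 to 30.0) and 17 in cerebrum (26.6%, 17.3 to 38.5). The intervals of these 3 genes overlap one another in each library, so their order is not settled at this number of sites, and in cerebellum that of Ythdf1 also overlaps those of Fto and Ythdc1. The median over the coding genes with such a site was 4.67% in cerebellum (7223 genes) and 6.76% in cerebrum (9323 genes). Each YTHDF gene exceeded at least 93.7% of those genes in cerebellum and at least 94.9% in cerebrum.

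On their longest coding transcripts the other members lay near or below these medians. Ythdc1 had 2 of 61 DRACH adenosines of its coding transcript listed in cerebellum (3.28%, 0.904 to 11.2) and 4 in cerebrum (6.56%, 2.58 to 15.7). Fto had 5 of 86 in cerebellum (5.81%, 2.51 to 12.9) and 6 in cerebrum (6.98%, 3.24 to 14.4). The Fto share depended on the isoform. On Fto-201, the principal isoform, which has another last exon, it was 9.46% in cerebellum and 12.2% in cerebrum, above these medians. Alkbh5 had 2 of 93 in cerebellum (2.15%, 0.592 to 7.51) and 4 in cerebrum (4.30%, 1.69 to 10.5). None of 144 DRACH adenosines of Ythdc2 (up to 2.598%), 172 of Igf2bp1 (up to 2.18%) and 85 of Igf2bp3 (up to 4.32%) was listed in either library. Igf2bp2 had 2 of 80 in cerebrum (2.50%, 0.688 to 8.66) and none in cerebellum (up to 4.58%).

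**Figure D2:**
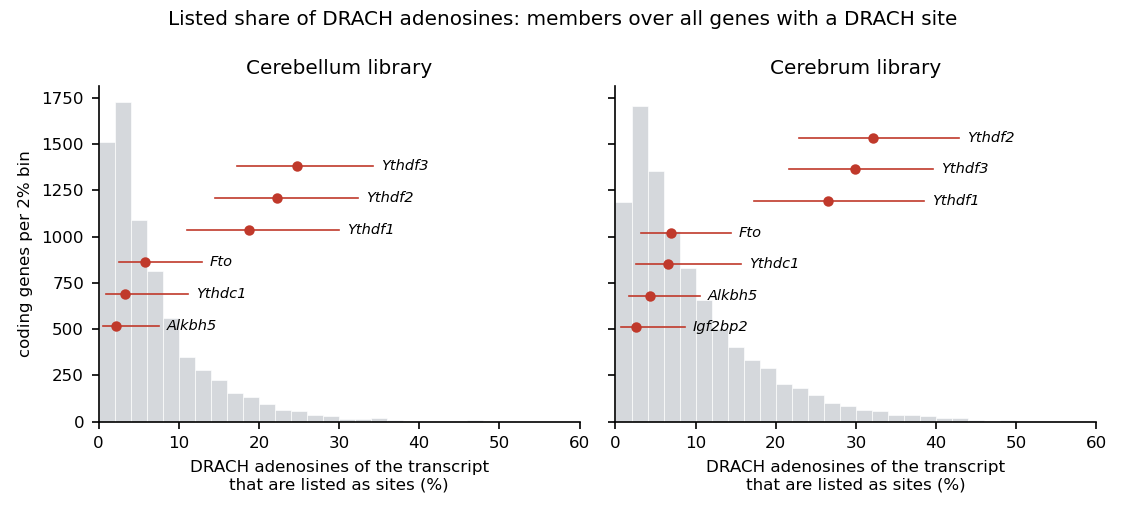
Share of the DRACH adenosines of the longest coding transcript that are listed as sites (x axis, %), for each member with at least 1 (red points, with 95% Wilson intervals, stacked by rank at arbitrary heights) over the histogram of all coding genes with at least 1 (grey, y axis in genes per 2% bin). The 3 YTHDF genes lie between 18.8% and 32.1%, in the right tail of both histograms. In cerebrum 1 gene above 60% lies outside the plotted range.

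Ythdf1 (chr2:180904377-180920949, minus strand), Ythdf2 (chr4:132184912-132212303, minus strand) and Ythdf3 (chr3:16183212-16217037, plus strand) share a gene structure of 5 exons. In each, exon 4 carries most of the coding sequence, including the YTH domain, in a single stretch of 1521 nt (Ythdf1), 1584 nt (Ythdf2) and 1599 nt (Ythdf3). Exon 4 held most of the sites. Of the DRACH sites on the 3 transcripts, 38 of 54 in cerebellum (70.4%, 57.2 to 80.9) and 54 of 72 in cerebrum (75.0%, 63.9 to 83.6) lay in it. Exon 4 also holds much of the available motif, with 34 of the 64 DRACH adenosines of Ythdf1, 36 of 81 of Ythdf2 and 38 of 97 of Ythdf3. In Ythdf3, 16 of 38 DRACH adenosines of exon 4 were listed in cerebellum and 21 in cerebrum. In Ythdf2 it was 13 of 36 and 19. In Ythdf1 it was 9 of 34 and 14. In cerebrum exon 4 thus had 41.2% (Ythdf1) to 55.3% (Ythdf3) of its DRACH adenosines listed.

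Exons 1 to 3 of the YTHDF genes together hold 14 DRACH adenosines, of which 1 was listed (7.14%, 1.27 to 31.5). It was in exon 3 of Ythdf2, an exon of 80 nt, 32 nt from a junction and in cerebrum only. A site outside DRACH was listed in exon 1 of Ythdf1 and another in exon 3 of Ythdf3, also in cerebrum only.

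The 3′ UTRs showed a pattern of their own. In Ythdf3, 8 of 11 DRACH adenosines in the first 400 nt of the 3′ UTR were listed, the same 8 in both libraries (72.7%, 43.4 to 90.3). In the rest of this 3′ UTR 0 of 44 were listed (up to 8.03%). In Ythdf2, 5 of 13 in the first 400 nt were listed in cerebellum and 6 in cerebrum, against 0 of 27 beyond (up to 12.5%). In Ythdf1, 1 of 7 in the first 400 nt and 2 of 13 beyond were listed, the same sites in both libraries, and the sites beyond lay 1114 and 1149 nt past the stop codon, near the end of a 3′ UTR of 1265 nt. So the DRACH sites of Ythdf2 and Ythdf3 ended within 400 nt of the stop codon although most DRACH adenosines of their 3′ UTRs lay farther on, and those of Ythdf1 did not. Sites outside DRACH did occur farther on, at 1713 and 1714 nt in Ythdf2 and at 2860, 2883 and 2917 nt in Ythdf3, none of them in both libraries. Coverage along the 3′ UTRs is not given in the lists, and its part in this pattern was not tested.

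**Figure D3:**
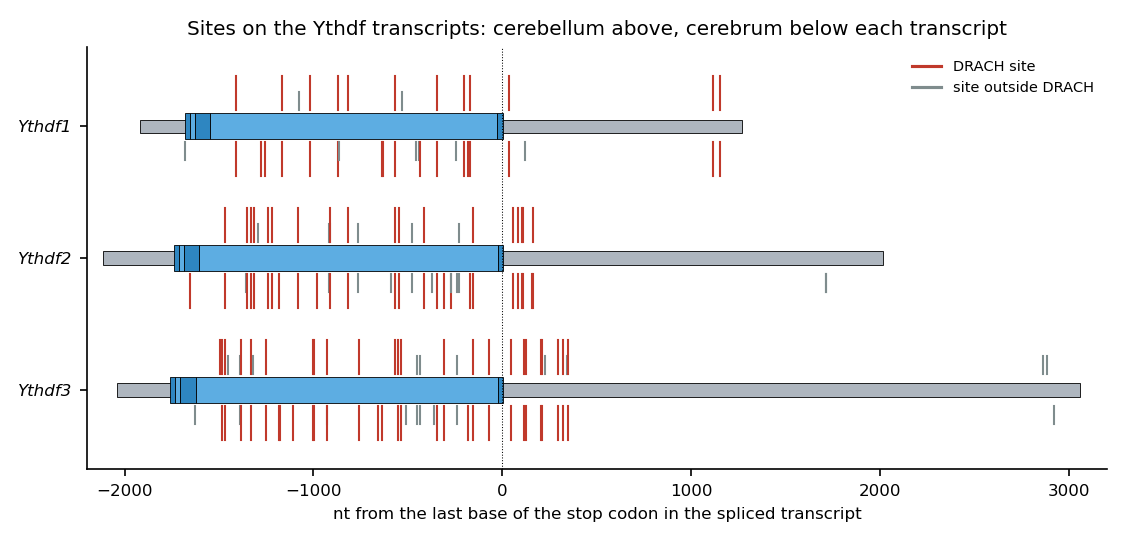
Listed sites on the longest coding transcripts of Ythdf1, Ythdf2 and Ythdf3 (x axis, nt from the last base of the stop codon after splicing), with coding exons in blue and untranslated parts in grey, cerebellum sites above and cerebrum sites below each transcript. Sites fill the long exon 4, and the DRACH sites (red, tall) of Ythdf2 and Ythdf3 end within 400 nt past the stop codon.

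Within the DRACH family the listed shares differed by 5-mer. On the YTHDF transcripts, 18 of 28 adenosines in GGACA were listed in at least 1 library (64.3%, 45.8 to 79.3). The share was 5 of 9 in Ythdf1, 8 of 12 in Ythdf2 and 5 of 7 in Ythdf3. Of the GGACT adenosines 5 of 7 were listed, of AGACT 8 of 15 and of TGACT 7 of 13. At the other end, 1 of 27 AAACA adenosines was listed (3.70%, 0.657 to 18.3), 2 of 15 AAACC and 0 of 8 TAACC. Over all members, GGACA was the most frequent 5-mer with 20 of 118 DRACH sites (16.9%, 11.2 to 24.7), while over all listed DRACH sites GGACT was first with 12.97% and GGACA made up 10.1%, below the lower bound of the members' interval. Of the 20 sites, 18 lay on the YTHDF transcripts, which hold 28 GGACA but only 7 GGACT adenosines. The part of this sequence content in the higher GGACA share was not tested.

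Of 36 sites outside DRACH on the YTHDF transcripts, 25 were 1 base away from DRACH (69.4%, 53.1 to 82.0). Of all 3162 adenosines outside DRACH on these transcripts, 37.9% were. Of the 37 sites outside DRACH on exons of any coding isoform of these genes, UTRs included, 8 were found in both libraries, and all 8 were 1 base away from DRACH.

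Since the YTHDF genes are paralogs, their coding sequences were aligned codon by codon to ask whether sites recur at the same place. The proteins, translated from the gene models, were 70.2% (Ythdf1 and Ythdf2), 72.1% (Ythdf1 and Ythdf3) and 71.8% (Ythdf2 and Ythdf3) identical. At 7 aligned bases all 3 genes had a DRACH adenosine, and at 3 of these all 3 genes had a listed site. Of the 21 adenosines at the 7 bases, 12 were listed in at least 1 library (57.1%, 36.5 to 75.5). Where 2 genes had DRACH at an aligned base, 16 of 38 were listed (42.1%, 27.9 to 57.8), and where 1 gene had it, 23 of 51 (45.1%, 32.3 to 58.6). These intervals overlap, so a higher share at conserved DRACH was not detectable with this number of sites.

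The sequences of the 3 aligned bases listed in all 3 genes are given here because they show the conserved 5-mer beside its changing surroundings, with the 5-mer in capitals. The first was listed in both libraries in every gene.
Ythdf1, codon 90, chr2:180912058-180912082, minus strand: cactacctatGGACAacttagtaat
Ythdf2, codon 90, chr4:132205566-132205590, minus strand: aacttcttatGGACAactgagcaac
Ythdf3, codon 91, chr3:16203951-16203975, plus strand: gacaacctatGGACAaatgagtaat
The second was found in both libraries in Ythdf1 and Ythdf2 and in cerebellum only in Ythdf3.
Ythdf1, codon 370, chr2:180911218-180911242, minus strand: tgtcctggagAAACTgaaagctgcc
Ythdf2, codon 391, chr4:132204663-132204687, minus strand: ggtgttggagAAACTtcggtccatt
Ythdf3, codon 397, chr3:16204869-16204893, plus strand: agtgctggaaAAACTaaaggccata
The third was found in both libraries in Ythdf1 and in cerebrum only in Ythdf2 and Ythdf3.
Ythdf1, codon 444, chr2:180910996-180911020, minus strand: caatgggagtGGACAtttctgtggg
Ythdf2, codon 465, chr4:132204441-132204465, minus strand: caacggcagtGGACActtctgtgga
Ythdf3, codon 471, chr3:16205091-16205115, plus strand: gaatggcagtGGACAtttttgtgga

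By pair, of 16 aligned bases with DRACH in Ythdf2 and Ythdf3, 9 were listed in both genes, against 3 of 14 for Ythdf1 and Ythdf2 and 3 of 11 for Ythdf1 and Ythdf3, and with so few bases no difference between pairs was tested. At some of these bases Ythdf1 has no adenosine, as in the following set, where the site was found in both libraries in Ythdf2 and Ythdf3 and the aligned 5-mer of Ythdf1 is GGGCA.
Ythdf1, codon 139, chr2:180911911-180911935, minus strand: tggttctcagGGGCAgcagactcag
Ythdf2, codon 141, chr4:132205413-132205437, minus strand: cagttctcagGGACAgtctactcaa
Ythdf3, codon 143, chr3:16204107-16204131, plus strand: tggatctcagGGACAatcaacacaa

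When any 5-mer was allowed, 5 aligned bases were listed in all 3 genes and 10 in 2 of them, and 4 of these lay outside DRACH in every gene listed there. One of the 4 was listed in all 3 genes, in cerebrum for Ythdf1 and Ythdf2 and in both libraries for Ythdf3, in 5-mers that keep GGAT but lack the C after the A.
Ythdf1, codon 479, chr2:180910893-180910917, minus strand: gatgtgaagtGGATTtttgtgaagg
Ythdf2, codon 500, chr4:132204338-132204362, minus strand: gatgtcagatGGATTtttgtgaagg
Ythdf3, codon 506, chr3:16205194-16205218, plus strand: gaagttaaatGGATCtttgtcaaag
Near-identical stretches of paralogs can share reads, and how the authors' mapping placed such reads was not tested.

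Ythdf3 had the most sites of all members. The highest number of DRACH sites in a stretch of at most 200 nt of its transcript was 5, and 7 partly overlapping stretches reached it, in exon 4 and in the 3′ UTR. The most compact spanned 124 nt, from 658 to 535 nt before the stop codon. The first of them along the transcript is shown, at the start of exon 4, from 1496 to 1329 nt before the stop codon. The sites at codons 91 and 143 shown above belong to it. The other members of the cluster are the following, of which the first was in cerebellum only and the others in both libraries.
1496 nt before the stop codon, chr3:16203940-16203964: atgccatatcTGACAacctatggac
1467 nt before, chr3:16203969-16203993: gagtaatggaGAACAtcattatata
1384 nt before, chr3:16204052-16204076: aacatggattTAACTtttttcctgg
In Ythdf2 the highest number was 6, reached from 1351 to 1183 nt before the stop codon and, in a shorter span of 108 nt, from 54 to 161 nt past it. In Ythdf1 it was 4, from 348 to 169 nt before the stop codon.

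Ythdc1 (chr5:86804221-86836659, plus strand), the nuclear reader, was marked in another way. It had 13 DRACH sites in cerebellum and 26 in cerebrum, all 13 found in both, yet only 4 of the 26 lay on the exons of its longest coding isoform of 17 exons. The other 22 lay off these exons, a number that 87 of 20698 coding genes exceeded. At least 10 DRACH sites off the exons of the longest coding isoform were found in 2.27% of the genes with a DRACH site.

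Intron 11 of Ythdc1 (chr5:86828122-86830553, 2432 nt) held 19 of the 22. Of its 58 DRACH adenosines, 11 were listed in cerebellum (19.0%, 10.9 to 30.9) and 19 in cerebrum (32.8%, 22.1 to 45.6), and all 11 of cerebellum were among those of cerebrum. Intron 1, by contrast, is 11037 nt long and had 0 of 202 DRACH adenosines listed (up to 1.87%), and intron 9 had 1 of 83. The sites of intron 11 spread from 19 to 2285 nt past its start. In the annotation all 19 lie on Ythdc1-207, an isoform with a retained intron, and 16 of them lie also on Ythdc1-208, an isoform marked for nonsense-mediated decay. The listed share of intron 11 was thus similar to those of the whole YTHDF transcripts, in an intron that annotated isoforms keep in part or in full. Whether the sites come from these isoforms or from unspliced RNA cannot be told from positions.

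By 5-mer, 8 of the 19 sites of intron 11 were GGACT and 6 were GAACT. The GGACT sites found in both libraries are shown, a choice made after the values were seen.
All are on the plus strand.
chr5:86828529-86828553: accacatatgGGACTtttataaagg
chr5:86828629-86828653: agcattattgGGACTgtttccaatt
chr5:86829217-86829241: tggcctaaaaGGACTgatcaccaag
chr5:86829311-86829335: gttttgcaatGGACTgcaaactata
On the coding isoform, exon 11 had a TGACT site in both libraries and a GAACT site in cerebrum, and the last exon a GAACT site in both and a GGACC site in cerebrum, 156 and 327 nt past the stop codon. The first part of the gene overlaps the noncoding gene Gm43055 on the same strand, so its sites there cannot be assigned to either. Intron 11 lies outside that overlap.

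**Figure D4:**
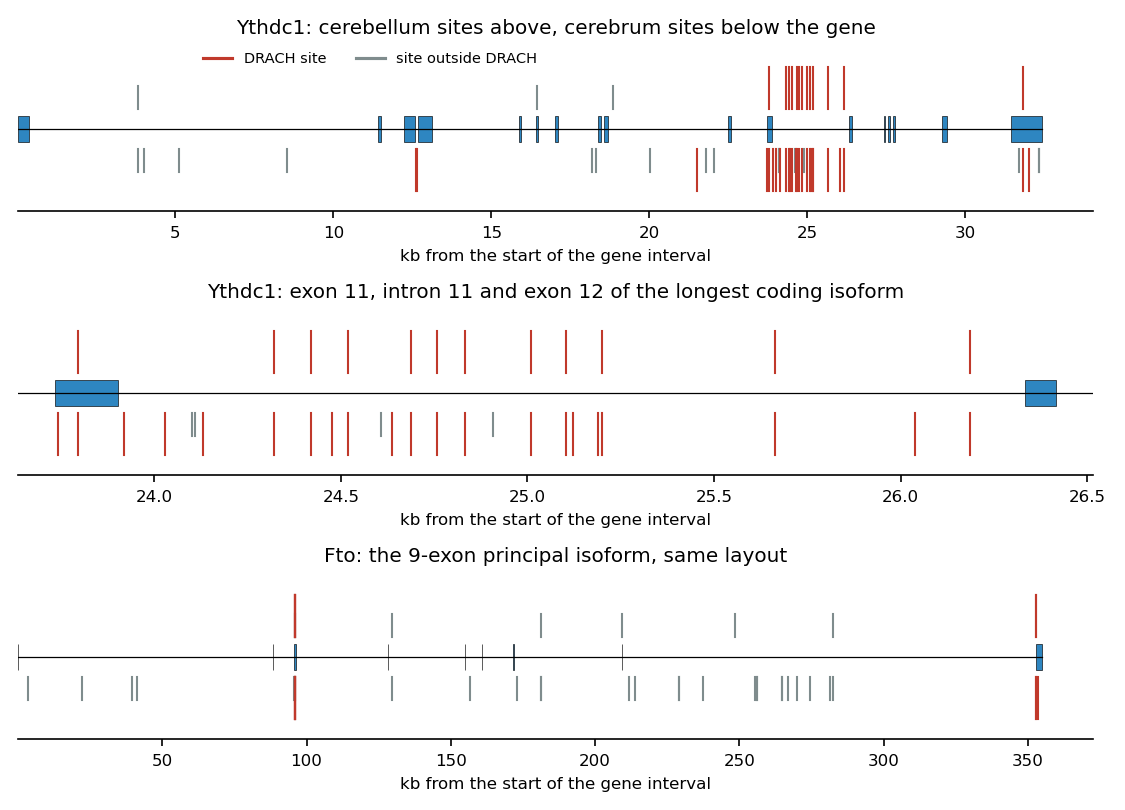
Listed sites along Ythdc1 (top), around intron 11 of Ythdc1 (middle) and along Fto (bottom), with cerebellum sites above and cerebrum sites below the line, DRACH sites in red and others in grey (x axis, kb from the start of the gene interval, boxes are exons). The DRACH sites of Ythdc1 gather in intron 11 (19 in cerebrum, 11 in cerebellum), whereas the sites in introns of Fto are all outside DRACH.

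Ythdc2 (chr18:44827746-44889724, plus strand) had 4 sites in cerebellum and 15 in cerebrum, none shared and none in DRACH. It was 1 of 3 members with a cerebrum site and no DRACH site in either library, with Igf2bp1 and Igf2bp3 (19.9% of coding genes with a cerebrum site). Of its 19 sites 5 were 1 base from DRACH and 6 lay in masked repeats.

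Among the erasers, Fto (chr8:91313525-91668439, plus strand) has by far the longest interval with 354915 nt. It had 7 DRACH sites in cerebellum and 9 in cerebrum, all 7 found in both, where the medians over coding genes with a DRACH site were 3 and 5. They fell in 2 places. Exon 3, the long internal exon of 619 nt, had 5 of its 13 DRACH adenosines listed in cerebellum and 6 in cerebrum. The last exon of Fto-201 had the others, 64 and 79 nt past the stop codon in both libraries and 532 nt past it in cerebrum. The other exons of the coding isoforms had none. In addition 22 sites lay in introns of Fto, 3 of its 14 in cerebellum and 21 of its 36 in cerebrum. None of the 22 was in DRACH and 2 were found in both libraries. Several annotated genes of unknown coding status lie within Fto on the same strand, and 3 of the intronic sites fell in them.

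Alkbh5 (chr11:60536381-60558512, plus strand) had 5 DRACH sites in either library, all in its last exon of 4275 nt. They lay 88 nt before and 20, 357, 3530 and 3918 nt past the stop codon. The site at 357 nt was in cerebellum only and the one at 3918 nt in both, and the others were in cerebrum only.

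The IGF2BP genes had next to no sites. Igf2bp1 (chr11:95957163-96005940, minus strand) had 1, in the 3′ UTR and outside DRACH. Igf2bp2 (chr16:22059009-22163299, minus strand) had 6, of which a GGACT and a GGACA site in the 3′ UTR, 1152 and 1524 nt past the stop codon, were in DRACH. Igf2bp3 (chr6:49085223-49214957, minus strand) had 3, outside DRACH. All 10 were in cerebrum only. Between each pair of IGF2BP genes 11 to 14 aligned coding bases carry DRACH in both, as many as between YTHDF pairs (11 to 16), and none was listed.

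By transcript region, 63 of the 112 member sites in cerebellum lay in coding sequence (56.3%, 47.0 to 65.1), against 30.2% of the sites of all coding genes. In cerebrum it was 97 of 222 (43.7%, 37.3 to 50.3) against 27.3%. The 3′ UTR held 23.2% (16.4 to 31.8) in cerebellum and 21.2% (16.3 to 27.0) in cerebrum, against 41.6% and 34.3%. Pooled, the member sites thus lay more often in coding sequence and less often in 3′ UTRs than those of coding genes as a whole. Exon 4 of the YTHDF genes supplied most of the coding sites, and not all members showed the excess. In cerebrum coding sequence held 19 of 23 sites of Ythdf1, 29 of 39 of Ythdf2 and 30 of 50 of Ythdf3. It held 6 of 15 in Ythdc2, 2 of 7 in Alkbh5, 9 of 36 in Fto, 2 of 42 in Ythdc1 and none in the IGF2BP genes. Introns held 8.93% (4.92 to 15.7) of the member sites in cerebellum and 18.5% (13.9 to 24.1) in cerebrum, against 21.8% and 29.6%. Exons of isoforms without a complete coding sequence went the other way. They held 11.6% (6.91 to 18.9) in cerebellum and 15.8% (11.6 to 21.1) in cerebrum, against 4.27% and 6.64%. The sites in the Ythdc1 intron that annotated isoforms keep are counted there, so the intron shares leave them out.

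Exon architecture differed less. Of the sites on exons of complete coding isoforms, 86 of 89 in cerebellum (96.6%, 90.6 to 98.8) lay in a last exon or an internal exon of at least 400 nt, against 89.5% over all coding genes. In cerebrum 132 of 146 (90.4%, 84.5 to 94.2) lay in such exons, against 84.1%. Such exons held 83.4% of the DRACH adenosines of the member transcripts with a DRACH site in cerebellum, against 65.0% over all coding genes. Within 100 nt of an exon junction lay 8.99% (4.63 to 16.7) of the member sites in cerebellum and 12.3% (7.94 to 18.6) in cerebrum, against 10.97% and 16.2%. Within 200 nt of the stop codon lay 19.1% (12.3 to 28.5) and 19.2% (13.6 to 26.3), against 20.3% and 18.9%. The shares near junctions and near the stop codon were within the counting error of those of all coding genes. The available DRACH adenosines differed, however. On transcripts with a DRACH site in cerebellum, 20.1% of them lay within 100 nt of a junction in members, against 34.9% over all coding genes. Within 200 nt of the stop codon it was 13.1% against 9.57%. Of the DRACH sites alone in cerebellum, 7.69% (3.33 to 16.8) lay within 100 nt of a junction in members, against 7.06%. Within 200 nt of the stop codon it was 24.6% (15.8 to 36.3) against 21.9%. Similar site shares therefore do not mean similar placement relative to the available motif.

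Between the tissues, the members had 1.98 times as many sites in cerebrum as in cerebellum, and 1.5 times as many DRACH sites (114 and 76). Over all coding genes these ratios were 2.35 and 1.79. Of the 76 DRACH sites of cerebellum 72 were found in cerebrum too (94.7%, 87.2 to 97.9), against 82.0% over all coding genes. Of the 36 sites outside DRACH 13 were (36.1%, 22.5 to 52.4), against 27.1%. The DRACH ratio of cerebrum to cerebellum was 1.42 in Ythdf1, 1.44 in Ythdf2, 1.25 in Ythdf3 and 1.29 in Fto, below the median of 1.68 over the coding genes with a DRACH site in both libraries. It was 2 in Ythdc1 and in Alkbh5. These 2 of 6 members had at least 2 times as many DRACH sites in cerebrum (43.8% of 7368 genes did), and none had at least 2 times as many in cerebellum (1.97%). The 6 ratios exceeded those of 26.5% (Ythdf3) to 56.1% (Ythdc1 and Alkbh5) of these genes, the middle of the distribution. The cerebrum list is the longer one, the depth of the libraries is unknown, and its part in these ratios was not tested.

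Other genes of the m6A pathway were counted for comparison. Of the 8 genes of the methyltransferase complex, 7 had a DRACH site in each library, with 89 DRACH sites in cerebellum and 168 in cerebrum. Rbm15b, an RNA-binding adaptor, had 18 and 37, and Wtap, which brings the complex to nuclear speckles, had 21 and 33. Mettl3, the catalytic subunit, had 2 and 3, and its partner Mettl14 had 0 of 158 DRACH adenosines listed. On the longest coding transcripts, Wtap had 17 of 72 DRACH adenosines listed in cerebellum and 22 in cerebrum. Rbm15b had 18 of 128 and 37, and Mettl3 2 of 38 and 3. High listed shares were therefore not confined to the YTHDF genes. Thus both the readers and the writers ranged from genes with many DRACH sites to genes with none. Of 6 other proposed readers 5 had a DRACH site in cerebellum and 6 in cerebrum, led by Prrc2a with 18 and 17. Of 7 other AlkB dioxygenases, the family of the erasers, 2 and 4 had one, led by Alkbh8 with 7 and 11. Of 4 other RNA adenosine methyltransferases it was 2 and 3. Of 3 decay partners of the readers it was Cnot1 and Upf1 in both libraries.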

How the data were processed

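GLORI was carried out by the authors on 1 cerebellum and 1 cerebrum poly(A)+ RNA sample. Reads were mapped by the authors to mm10 and to a copy of mm10 with PWK bases, sites were called with GLORI-tools, and those passing thresholds on methylation rate and read count in the union of both sets were kept. The deposited files give the genomic position and strand of each site and no other measurement, so depth per sample is not given and PWK-specific adenosines cannot be told from the lists. All member positions were A in GRCm38.

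Sites were assigned to GENCODE M21 genes, a release other than the one the study names, by interval and strand. The region came from the longest complete coding isoform that covers the site, and "other exon" is an exon of an isoform without a complete coding sequence. Overlapping genes on one strand share sites. YTHDF and IGF2BP coding sequences were aligned by protein with Biopython 1.88. The steps were tested on simulated data: regions were recovered for 100% of 2000 simulated sites and aligned codons for 98.6% of 1000. Python 3.11.15, numpy 2.4.6, scipy 1.17.1 and pysam 0.24.0 were used.

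All members were named. Sequences were shown for the DRACH site found in both libraries closest to each stop codon, for aligned sites of paralogs, for the first of the equally dense stretches of Ythdf3 and, chosen after their values were seen, for GGACT sites of Ythdc1 intron 11. Members and lists were chosen with earlier results of these data known. No test between tissues was possible with 1 library each.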

Additional observations from a re-analysis of the deposited data

How the results depend on the processing

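Of 185 values recomputed under another setting, 153 stayed within their counting interval (counts within 1.5 times) and 32 moved. A change of direction was looked for in the ratios between the libraries only, and 0 had one. Some of the 153 could not move, such as the motif share with the centre read as A, since every member position was A. With only DRACH sites counted, the members had 114 sites in cerebrum. The share found in both libraries went from 75.9% to 94.7% in cerebellum and from 38.3% to 63.2% in cerebrum. The share in last or long internal exons became 96.7% in cerebrum. The coding share became 56.1% in cerebrum, and the intronic share 0% in cerebellum and 2.63% in cerebrum. These intronic shares also leave out sites on exons of isoforms without a complete coding sequence. The cerebrum to cerebellum ratio became 1.5. The DRACH share of the member sites was 67.9% in cerebellum and 51.4% in cerebrum, against 63.9% and 48.6% over all coding genes. With the motif RRACH the motif share was 53.6% in cerebellum and 38.7% in cerebrum. With only annotated exons the DRACH share was 61.3% in cerebrum. A stop codon window of 400 nt held 33.7% of the sites in cerebellum and 34.2% in cerebrum, and a junction window of 200 nt held 31.5% in each. With sites allowed to differ by 1 codon, Ythdf1 and Ythdf2 shared 6 sites and Ythdf1 and Ythdf3 shared 5. For Fto the cerebrum count fell from 36 to 15 on exons and to 9 in DRACH, and its ratio of 2.57 became 1.36 and 1.29. Counting only DRACH sites for the exon, junction and stop codon shares, leaving out the Ythdc1 sites off coding exons or the Fto intronic sites, and the principal isoform for listed shares were chosen after seeing the data. Unknown depth limits every absence and every ratio between the libraries. No paired analysis was possible because each tissue has 1 library.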
